A study of Mus musculus with 13 samples.

Results

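The 10 genes described here are Wnt ligands and genes that regulate or report Wnt signalling: Wnt3, Wnt3a, Wnt5a, Wnt5b, Wnt2, Rspo3, Dkk1, Axin2, Lef1 and Sp5. They were chosen by name, with earlier results of these data known, as were the pathway and marker lists used below. Counts set against all tested genes therefore describe these lists only. Each of the 10 symbols matched 1 of the 45250 genes in the deposited expression table. Of these 10 genes, 9 passed the filter on low values and were among the 13802 genes tested, while Wnt3a did not. The study followed mouse embryonic stem (ES) cells in culture towards blood, at the haemangioblast stage and at the first stage of haemogenic endothelium (HE1), in cells with and without the transcription factors LMO2 or TAL1. The 13 RNAseq libraries comprise 3 per genotype at the Flk-1+ stage (WT, Lmo2-/-, Tal1-/-) and 2 per genotype in HE1 (WT, Lmo2-/-). Flk-1+ haemangioblasts were isolated from embryoid bodies on magnetic columns with an antibody to Flk-1, and HE1 cells were sorted from blast cultures as Kit+, Tie2+ and CD41-. WT cells came from the CCB ES line, and each mutant genotype from a single ES line of its own, so a difference between genotypes cannot be told apart from a difference between lines. All lines were maintained on mouse embryonic fibroblasts before differentiation. Replicates are named 0, 1 and 2 as in the deposited table. They were separate libraries, and the p-values measure the spread between them. In the main fit the spread of a gene was estimated over all 13 libraries together. The p-values of HE1 comparisons therefore rest also on the spread among Flk-1+ libraries.

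Wnt proteins are secreted lipid-modified ligands that bind Frizzled receptors. In the canonical pathway the ligand also engages the co-receptors LRP5 and LRP6, which stops the destruction of beta-catenin, so that beta-catenin enters the nucleus and activates genes with TCF and LEF proteins. WNT3 and WNT3A are canonical ligands that drive formation of the primitive streak and its mesoderm, whereas WNT5A and WNT5B mostly signal without beta-catenin, through receptors such as ROR1 and ROR2. RSPO3 enhances Wnt signalling by protecting Frizzled receptors from removal, and DKK1 inhibits it by binding LRP5 and LRP6. Axin2, Lef1 and Sp5 are widely used as targets of the canonical pathway, and AXIN2 and SP5 also damp it.

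TCF and LEF proteins bind DNA at letters close to CTTTGAT or CTTTGAA, so the 250 bases before each start site were searched for these 7 letters on both strands. Windows came from RefSeq (GRCm38.p6) and existed for 8 of the 10 genes, which had 13 start sites between them. Either motif was present in 3 of these 13 windows, belonging to Sp5, Dkk1 and 1 start of Wnt5b, against 7.5% of all 32851 windows of the same length. The windows of Sp5 and Dkk1 are shown because each holds a match. That of Axin2 is shown because, among Axin2, Lef1 and Sp5, it had the fitted log2 fold change of largest size. The Axin2 window holds no match to these letters. Capitals mark the match, which lies on the strand of the gene in both, 98 to 104 bases before the start of Sp5 (chr2:70474673-70474922, plus strand) and 111 to 117 bases before that of Dkk1 (chr19:30549497-30549746, minus strand). The Axin2 window is at chr11:108920099-108920348 on the plus strand. Such a match is a description of the sequence and not evidence of binding.
Sp5: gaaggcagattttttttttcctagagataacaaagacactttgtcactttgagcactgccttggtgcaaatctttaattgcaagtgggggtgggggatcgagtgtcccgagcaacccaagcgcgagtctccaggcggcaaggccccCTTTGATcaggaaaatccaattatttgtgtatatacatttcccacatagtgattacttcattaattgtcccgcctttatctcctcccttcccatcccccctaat
Dkk1: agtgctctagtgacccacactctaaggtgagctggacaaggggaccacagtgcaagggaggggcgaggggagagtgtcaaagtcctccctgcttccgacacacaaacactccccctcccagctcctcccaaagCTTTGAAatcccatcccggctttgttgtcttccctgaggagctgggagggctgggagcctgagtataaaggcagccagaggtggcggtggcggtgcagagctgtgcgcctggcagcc
Axin2: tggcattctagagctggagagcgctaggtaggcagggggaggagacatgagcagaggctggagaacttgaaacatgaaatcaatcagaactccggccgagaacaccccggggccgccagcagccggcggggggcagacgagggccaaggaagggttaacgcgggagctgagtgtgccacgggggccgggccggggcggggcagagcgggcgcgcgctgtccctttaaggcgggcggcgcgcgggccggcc

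The expression unit is FPKM, fragments scaled by the authors to transcript length and library size, so levels can be compared between genes as well as between libraries. Fragment counts are not given, which leaves the depth of single values unknown. In 12 libraries 11861 to 15641 genes were above 0 FPKM, whereas Lmo2-/- HE1 replicate 1 had 9694. By the steps in which low values move, a fragment in that library was worth 3.68 times the FPKM of a fragment in the median library, against 0.607 to 1.56 times in the other 12. Of 4079 genes with a median above 10 FPKM, 191 were listed at 0 there, against at most 59 elsewhere. The called HE1 results of Lmo2-/- cells, and member values that moved by much, are given also without this library. The targeted gene Lmo2 ran from 21.6 to 30.8 FPKM in WT and from 2.17 to 6.48 in Lmo2-/- Flk-1+ cells. In HE1 it was 4.30 and 20.6 FPKM in the libraries labelled WT and 6.42 and 0 in those labelled Lmo2-/-, which overlap, so all HE1 directions rest on the labels. Tal1 ran from 2.74 to 3.41 FPKM in Tal1-/- and from 22.0 to 37.4 in WT Flk-1+ cells. In Tal1-/- Flk-1+ cells Lmo2 was at 0, 7.58 and 1.29 FPKM, below every WT Flk-1+ library. The paper reports that LMO2 protein could not be detected in them, so the Tal1-/- comparisons concern cells low in both factors. In Lmo2-/- Flk-1+ cells Tal1 was at 6.51, 29.0 and 6.64 FPKM.

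Markers of HE1 matched the labelled stages, whereas those of Flk-1+ mesoderm did so only in part. The summed FPKM of Tek (Tie2), Kit, Cdh5 and Pecam1 was at most 13.3 in the 9 Flk-1+ libraries and between 674 and 742 in the 4 HE1 libraries, where each of the 4 genes was above 10. Kdr, which encodes Flk-1, was at 68.7 FPKM or more in every library. With Pdgfra, Mesp1 and Etv2 it summed to 118 to 311 FPKM in Flk-1+ cells and to 212 to 277 in HE1, which overlap. Mesp1 and Etv2 were lower in every HE1 library than in any Flk-1+ library, while Kdr in all HE1 libraries and Pdgfra in Lmo2-/- HE1 were not. The 5 pluripotency markers Pou5f1, Nanog, Sox2, Zfp42 and Esrrb summed to 4.31 to 23.2 FPKM in Flk-1+ cells and to at most 0.533 in HE1. The 4 endoderm markers summed to at most 2.73 FPKM in Flk-1+ cells, 18.7 in WT HE1 and 7.07 in Lmo2-/- HE1, and the 5 blood markers to at most 6.80, 15.4 and 19.8, with Ptprc at 0 in all libraries. The 5 markers of mural cells and fibroblasts (Acta2, Tagln, Col1a1, Col3a1 and Postn) summed to 7.76 to 32.6 FPKM in Flk-1+ cells, to 190 and 242 in the HE1 libraries labelled WT and to 475 and 1498 in those labelled Lmo2-/-. In bulk samples fewer cells of a type and less RNA per cell cannot be told apart.

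Among the ligands, Wnt5a was the most abundant in 12 of the 13 libraries, and Wnt3 was detected mainly at the Flk-1+ stage. Wnt3 was at 8.57, 7.98 and 4.54 FPKM in the WT Flk-1+ libraries 0, 1 and 2, at 7.35, 6.67 and 6.96 in Lmo2-/-, and at 12.6, 7.05 and 4.13 in Tal1-/-. In HE1 it was listed at 0 in both WT libraries and was at 0.185 and 0.583 FPKM in Lmo2-/-. Every Flk-1+ library thus lay above every HE1 library for this gene, and the 3 genotypes overlapped within the Flk-1+ stage. Wnt3a was listed at 0 in 12 libraries and was at 0.0866 FPKM in Lmo2-/- Flk-1+ replicate 2.

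Wnt5a behaved differently from Wnt3. Its FPKM was 26.8, 6.29 and 13.8 in WT Flk-1+ cells, 14.9, 27.5 and 16.0 in Lmo2-/- and 15.2, 32.3 and 30.6 in Tal1-/-. In HE1 it was 4.59 and 3.68 in the libraries labelled WT and 38.4 and 58.6 in those labelled Lmo2-/-. The WT HE1 libraries were the lowest of the 13 and the Lmo2-/- HE1 libraries the highest. Wnt5b, the closest relative of Wnt5a, stayed between 0.406 and 5.85 FPKM in the Flk-1+ libraries and was listed at 0 in all 4 HE1 libraries. Wnt2, a canonical ligand known from heart and lung mesoderm, ranged from 0 to 10.1 FPKM with overlap between all 3 Flk-1+ groups, and its highest value was in Lmo2-/- HE1 replicate 1.

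The secreted modulators differed from the ligands. Rspo3 was at 22.6, 11.4 and 14.8 FPKM in WT Flk-1+ cells, 10.8, 20.0 and 9.67 in Lmo2-/-, and 8.08, 3.69 and 8.02 in Tal1-/-, where all 3 libraries lay below those of the other genotypes. It was detected in every HE1 library, at 19.8 and 8.20 FPKM in WT and 19.2 and 25.8 in Lmo2-/-. Dkk1 showed the opposite order in Flk-1+ cells. It was at 3.67, 2.12 and 1.54 FPKM in WT, 2.07, 2.58 and 2.28 in Lmo2-/- and 4.68, 19.4 and 14.0 in Tal1-/-, so the lowest Tal1-/- library was still above the highest of the other 6. In HE1 Dkk1 was listed at 0 in 1 library of each genotype and was at 0.943 and 4.27 FPKM in the others.

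The targets were expressed mainly at the Flk-1+ stage. Axin2, a scaffold of the complex that destroys beta-catenin, was at 31.8, 26.3 and 17.1 FPKM in WT, 14.6, 35.3 and 22.8 in Lmo2-/- and 23.4, 39.7 and 23.7 in Tal1-/- Flk-1+ cells. It was at 0.373 and 0.971 FPKM in the HE1 libraries labelled WT and at 5.71 and 15.6 in those labelled Lmo2-/-. Axin2 was thus below 1 FPKM in WT HE1, whereas Lmo2-/- HE1 replicate 1 lay within the Flk-1+ range. Lef1, a DNA-binding partner of beta-catenin, was the most abundant of the 10 genes in every Flk-1+ library, at 179, 91.8 and 30.2 FPKM in WT, 51.8, 204 and 103 in Lmo2-/- and 89.4, 151 and 103 in Tal1-/-. Its HE1 values were 19.1 and 3.14 FPKM in WT and 7.40 and 38.9 in Lmo2-/-, which overlap. Sp5, a zinc finger repressor, was low throughout, at 3.82, 1.62 and 1.40 FPKM in WT, 1.32, 0.409 and 0.810 in Lmo2-/- and 0.546, 5.08 and 3.42 in Tal1-/-, and was listed at 0 in all HE1 libraries.

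**Figure D1:**
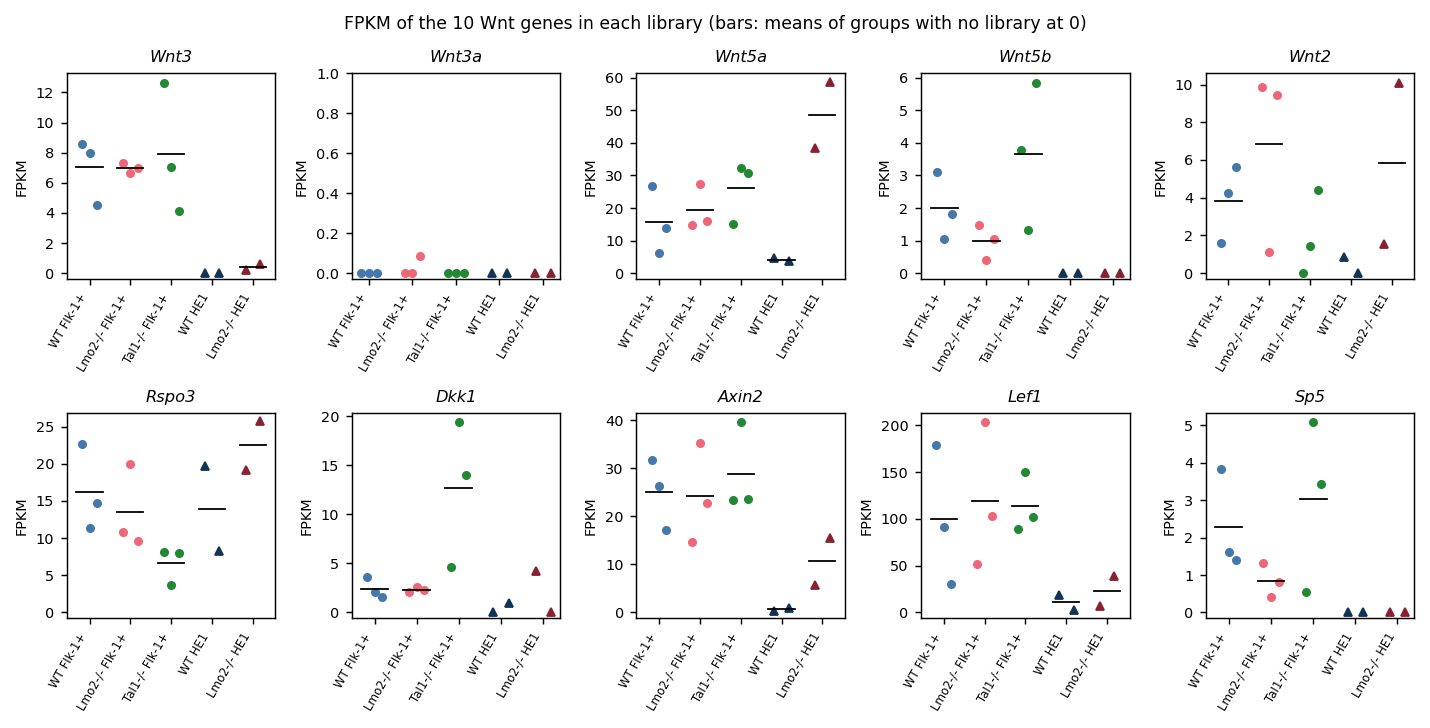
FPKM of the 10 genes (1 panel each, vertical axes to their own scale) in the 5 groups, with 1 point per library (circles, Flk-1+; triangles, HE1) and a bar at the mean of groups with no library at 0. The 2 HE1 libraries labelled Lmo2-/- lie at 38.4 and 58.6 for Wnt5a and those labelled WT at 4.59 and 3.68, while the 3 Tal1-/- libraries lie highest for Dkk1 and lowest for Rspo3 among Flk-1+ cells.

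Replicates of a group also varied widely for some of these genes. Lef1 ran over a 5.94-fold range among the 3 WT Flk-1+ libraries and a 3.93-fold range among the Lmo2-/- ones, and Wnt2 over an 8.69-fold range in the latter, and Sp5 over a 9.31-fold range in Tal1-/- Flk-1+ cells. Axin2 and Lef1 ordered the libraries alike within each Flk-1+ group, being highest in replicate 0 and lowest in replicate 2 of WT, and highest in replicate 1 and lowest in replicate 0 of both mutants. Over the 13 libraries the Pearson correlation of the 2 genes on the log2(FPKM + 1) scale was 0.859. The points share library and depth and fall into 2 stages, so this value describes mostly the stage.

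**Figure D2:**
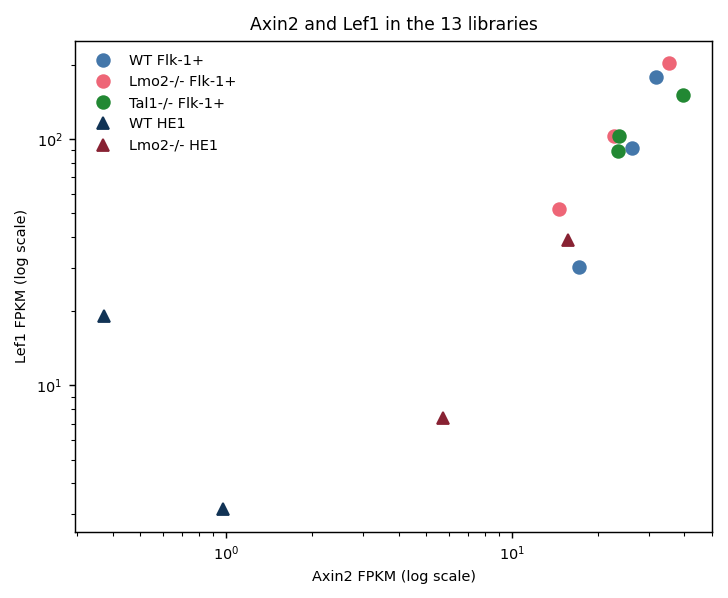
FPKM of Axin2 (horizontal axis, log scale) against Lef1 (vertical axis, log scale), with 1 point for each of the 13 libraries (circles, Flk-1+; triangles, HE1). The 9 Flk-1+ libraries lie at 14.6 or more for Axin2, the HE1 libraries labelled WT lie at 0.373 and 0.971, and those labelled Lmo2-/- lie at 5.71 and 15.6.

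The genes whose levels followed Axin2 most closely over the 13 libraries were Gpc3, a membrane proteoglycan (r = 0.969), Tenm3 (0.955), Msi1 (0.946), Cacnb3 (0.945) and Ptprk (0.941). Gpc3 was between 77.9 and 178 FPKM in Flk-1+ cells, at 6.86 and 8.61 in WT HE1 and at 34.3 and 80.2 in Lmo2-/- HE1. Of the other Wnt genes described here, Lef1 and Wnt3 were the closest, at ranks 49 and 53 with r = 0.859 and 0.853. These correlations describe likeness across the same libraries, mostly between stages, and were not tested.

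To ask whether loss of LMO2 or TAL1 altered these genes in haemangioblasts, the 3 Flk-1+ groups were compared in 1 limma fit on log2(FPKM + 1) of all 13 libraries. A gene was called when its Benjamini-Hochberg adjusted p over the 13802 tested genes was below 0.05 and either group it compares averaged more than 10 FPKM. From WT to Lmo2-/- Flk-1+ cells none of the 9 genes was called, against 0% of all tested genes. The targeted gene Lmo2 was thus not called either, so a missing call here does not show that a gene was unchanged. The study, with Cuffdiff, did report differing genes at this stage. None of the 9 genes had an unadjusted p below 0.05, against 2.22% of all tested genes. Their median log2 fold change was -0.01, as was that of all tested genes. Axin2 changed by -0.09 (95% interval -1.05 to 0.87) and Lef1 by 0.37 (-1.28 to 2.02). The intervals leave room for changes of this size in either direction. The libraries did not overlap only for Sp5, which was lower in Lmo2-/- by 0.79 on the log2 scale (SE 0.50, limma adjusted p = 1.00), where 8.21% of all tested genes did not overlap.

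From WT to Tal1-/- Flk-1+ cells none of the 9 genes was called either, again against 0% of all tested genes, and 2 had an unadjusted p below 0.05, against 6.11%. These were Dkk1 and Rspo3, the only members whose libraries did not overlap, against 12.6% of all tested genes. Dkk1 was 1.85 higher in Tal1-/- on the log2 scale (SE 0.64, limma adjusted p = 0.64) and Rspo3 was 1.20 lower (log2 fold change -1.20, SE 0.44, limma adjusted p = 0.69). Both had p = 0.10 in the exact permutation test over libraries (two-sided), the smallest that 3 against 3 libraries allow. Neither difference passed the correction over all genes. The targeted gene Tal1 was not called in this comparison either, so a missing call does not show that a gene was unchanged. Wnt5a differed by 0.84 (95% interval -0.19 to 1.87) and Axin2 by 0.20 (-0.76 to 1.16).

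The mutants were also compared with each other at this stage, which uses libraries of both comparisons above. Dkk1 was 1.86 higher (SE 0.64) and Rspo3 lower (log2 fold change -0.93, SE 0.44) in Tal1-/-, and neither was called, against 0.0145% of all tested genes. Their libraries did not overlap, against 13.3% of all tested genes. Wnt5b was 1.14 higher in Tal1-/- (SE 0.46), with overlapping libraries and no call. None of the 58 other tested Wnt pathway genes was called in any of these 3 comparisons. These 58 were those that passed the filter among 82 listed ligands, receptors, R-spondin axis genes, inhibitors, transducers, nuclear partners and targets. The paper, using Cuffdiff and TAL1 peaks, reports genes near these peaks that differed between the mutants, most of them higher in Tal1-/-. It names suppressors of canonical Wnt signalling among them. With 0.0145% of all tested genes called between the mutants here, the missing calls do not show that these genes were unchanged.

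To ask how the genes changed as haemangioblasts became haemogenic endothelium, Flk-1+ cells and HE1 were compared within each genotype. Both share libraries with the genotype comparisons, so the values of each are given on their own. In WT cells the targets Axin2 and Lef1 fell. Axin2 fell by 3.94 on the log2 scale (SE 0.50, limma adjusted p = 0.000329) and Lef1 fell by 3.14 (SE 0.86, limma adjusted p = 0.035). These 2 of 9 genes were called lower and none higher, against 0.942% of all tested genes called lower and 6.04% called higher. Wnt3, listed at 0 in both WT HE1 libraries, passed the adjusted p alone (limma adjusted p = 0.0020) with group means below the FPKM criterion. Of all tested genes 2.16% passed the adjusted p alone with lower values. For 8 of the 9 genes every HE1 library lay below every Flk-1+ library, the exception being Rspo3. In that direction 17.2% of all tested genes did not overlap. The median log2 fold change of the 9 genes was -1.64 and that of all tested genes 0.11.

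Wnt5a was among the 8, lower in WT HE1 by 1.50 (log2 fold change -1.50, SE 0.53, limma adjusted p = 0.10) but not called. It was called when the libraries were scaled to a common median (-1.92, adjusted p = 0.028), by quantile normalization (-1.81, adjusted p = 0.041) and with array weights (-1.41, adjusted p = 0.046). Over all 10 alternatives its adjusted p ran from 0.028 to 0.19. Without WT Flk-1+ replicate 1 it was -1.99 (adjusted p = 0.039). The call of Axin2 held when each library was left out in turn. That of Lef1 was lost without WT Flk-1+ replicate 0 (log2 fold change -2.56, adjusted p = 0.096), WT Flk-1+ replicate 1 (-3.04, adjusted p = 0.11) or WT HE1 replicate 1 (-2.003, adjusted p = 0.29), and also with no filter on low values (adjusted p = 0.072) and with the groups fitted alone (adjusted p = 0.12).

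In Lmo2-/- cells the same stage step gave a different set of values. Lef1 fell by 2.51 (SE 0.86, limma adjusted p = 0.047) and was the only one of the 9 genes called, against 2.38% of all tested genes called lower and 17.2% called higher. This call was lost under 6 of 10 alternatives and without 7 of the 13 libraries. The smallest fall was without Lmo2-/- HE1 replicate 0 (log2 fold change -1.38), whereas without Lmo2-/- HE1 replicate 1 the log2 fold change was -3.63. Wnt3 differed by -2.54 (SE 0.49) and passed the adjusted p alone (limma adjusted p = 0.0029), against 5.71% of all tested genes lower by that rule. Axin2 was lower by 1.17 (log2 fold change -1.17, 95% interval -2.24 to -0.10, limma adjusted p = 0.10) with overlapping libraries. It was called under quantile normalization (-1.92), at a common median (-2.09) and without Lmo2-/- HE1 replicate 1 (-1.83, adjusted p = 0.042).

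Wnt5a went the other way in Lmo2-/- cells, where both HE1 libraries lay above all 3 Flk-1+ libraries. The log2 fold change was 1.30 (SE 0.53, limma adjusted p = 0.091) and was not called. It was 0.26 under quantile normalization and 0.31 with libraries scaled to a common median, and 1.00 without Lmo2-/- HE1 replicate 1. Wnt3, Lef1, Wnt5b and Sp5 did not overlap in the lower direction, against 15.1% of all tested genes lower and 31.9% higher. Rspo3 (0.75, 95% interval -0.32 to 1.81) and Wnt2 (-0.23, -2.16 to 1.69) overlapped between stages. Without Lmo2-/- HE1 replicate 1 Rspo3 was 0.54, Wnt2 -1.30 and Wnt3 -2.75.

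The comparison of HE1 between genotypes asks which genes differed once the cells had reached the endothelial stage. Wnt5a and Axin2 were higher in the libraries labelled Lmo2-/-, and no member was lower. Wnt5a rose by 3.24 on the log2 scale (SE 0.58, 95% interval 1.98 to 4.50, limma adjusted p = 0.0088) and Axin2 by 2.68 (SE 0.54, 1.51 to 3.86, limma adjusted p = 0.0155). These 2 of 9 genes, from a list chosen with earlier results of these data known, compare with 2.15% of all tested genes called higher and 0.855% called lower. Both groups separated fully for Wnt5a, Axin2, Wnt3 and Wnt2, all higher in Lmo2-/-, against 25.9% of all tested genes. The exact permutation test over 2 against 2 libraries cannot go below 0.333 (two-sided), the value it gave for these 4 genes. Wnt2 was 1.97 higher (95% interval -0.14 to 4.07), and Rspo3 0.75 higher (-0.42 to 1.92), neither called. Without Lmo2-/- HE1 replicate 1 they were 0.91 and 0.54, and Lef1 was -0.12 and Dkk1 1.92. Lef1 differed by 1.01 (-1.02 to 3.03), which was not called.

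Both calls rested on few HE1 libraries. The values of Wnt5a were 3.37, 3.12 and 2.95 (adjusted p = 0.066, 0.063 and 0.068) without WT HE1 replicate 0, WT HE1 replicate 1 and Lmo2-/- HE1 replicate 1. Without the same 3 libraries those of Axin2 were 2.42, 2.94 and 2.03 (adjusted p = 0.12, 0.058 and 0.12). None of these was called, whereas both genes were called without Lmo2-/- HE1 replicate 0 and without any of the Flk-1+ libraries. Both calls were also lost when the HE1 groups were fitted alone and with array weights. Axin2 alone lost its call at a common median (2.09, adjusted p = 0.030), where its mean fell under the FPKM criterion.

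**Figure D3:**
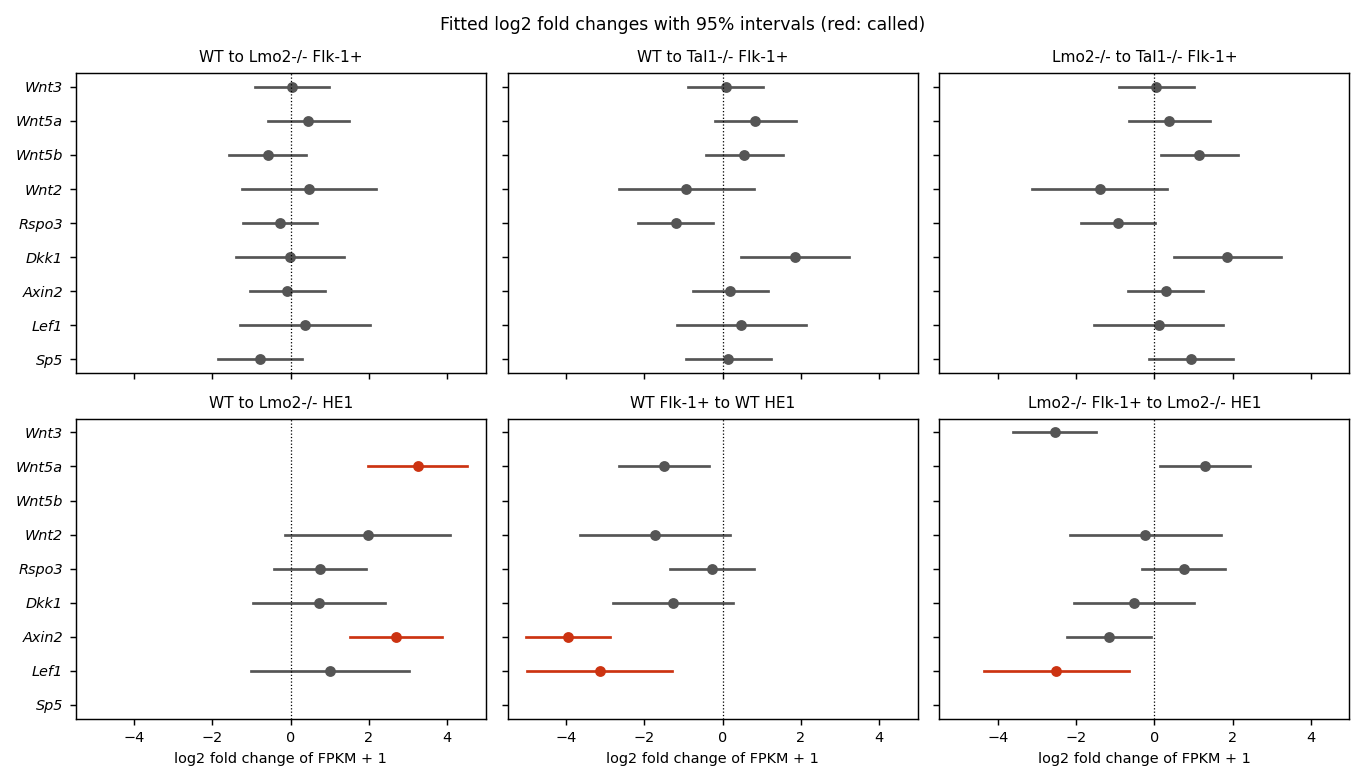
Fitted log2 fold changes of FPKM + 1 (points, horizontal axis) with 95% intervals (lines) for the 9 tested genes in 6 comparisons, called genes in red; genes with all libraries of a group at 0 are left out of that panel. Wnt5a (3.24) and Axin2 (2.68) lie above 0 from WT to Lmo2-/- HE1, Axin2 (-3.94) and Lef1 (-3.14) lie below 0 from WT Flk-1+ to WT HE1, and no gene is red in the 3 Flk-1+ comparisons.

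The interaction term of the fit tests whether the stage step differed by genotype. None of the 9 genes was called, against 0.348% of all tested genes, and 2 had an unadjusted p below 0.05, against 12.1%. These were Wnt5a, whose change was 2.79 more positive in Lmo2-/- than in WT (SE 0.75, limma adjusted p = 0.14), and Axin2 (2.77, SE 0.70, limma adjusted p = 0.12). Without Lmo2-/- HE1 replicate 0 Wnt5a was at 3.09 and Axin2 at 3.42. That fit leaves only replicate 1 in the group, the library with the fewest genes above 0 FPKM. Without Lmo2-/- HE1 replicate 1 they were 2.49 and 2.12. The all-gene median of this interaction was 0.23. For Lef1 the interaction was 0.64 (95% interval -1.98 to 3.25).

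Among the other pathway genes, those called between the HE1 groups were mostly receptors. Ror1 and Ror2, the co-receptors that bind WNT5A, were called higher in Lmo2-/- HE1, with log2 fold changes of 3.47 (SE 0.51, limma adjusted p = 0.0027) and 3.35 (SE 0.54, limma adjusted p = 0.0048). Ror1 was at 1.15 and 1.59 FPKM in WT HE1 and at 18.8 and 33.5 in Lmo2-/- HE1, and at 0.593 to 2.06 in all Flk-1+ libraries. Ror2 was at 0 and 0.172 FPKM in WT HE1, 6.18 and 16.0 in Lmo2-/- HE1, and 1.44 to 6.58 in Flk-1+ cells. The Lmo2-/- HE1 libraries were thus alone in their Ror1 level, while Ror2 in their replicate 0 lay within the Flk-1+ range.

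The Frizzled receptors Fzd2 (2.57, SE 0.50) and Fzd3 (2.50, SE 0.63) were also called higher in Lmo2-/- HE1, giving 4 of 14 tested receptors, against 2.15% of all tested genes. The median log2 fold change of these 14 was 1.20, against 0.15 for all tested genes. Cdx2, a homeobox gene of posterior mesoderm, was the only call among 11 tested targets and feedback genes (3.36, SE 0.58), at 0 and 0.291 FPKM in WT HE1 and 4.87 and 22.1 in Lmo2-/- HE1. None of the 3 other tested ligands, 2 Wnt secretion genes, 4 R-spondin axis genes, 7 inhibitors, 10 transducers or 7 nuclear partners of beta-catenin was called. In all, 5 of the 58 other pathway genes were called higher and none lower, against 2.15% and 0.855% of all tested genes. Leaving out any HE1 library leaves 1 sample in a group. This count then moved in both directions, as did that over all tested genes when single libraries were left out. Without Lmo2-/- HE1 replicate 1 Ror1 was 3.07 and kept its call, while Ror2 (2.73), Fzd2 (2.24), Fzd3 (1.62) and Cdx2 (2.37) were not called. Ror1 (3.55, limma adjusted p = 0.033) and Ror2 (3.49, limma adjusted p = 0.0497) were also called in the interaction of genotype and stage, the only pathway genes that were (0.348% of all tested genes). Both interaction calls were lost when any single library other than Lmo2-/- HE1 replicate 0 was left out. The number of interaction calls over all tested genes also moved when single libraries were left out.

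Some mesenchymal markers were higher in the same libraries as Wnt5a and the Ror genes, and others were not. Pdgfra, a receptor of mesoderm and fibroblasts and the second marker of the Flk-1+ list, was at 2.98 and 1.01 FPKM in the HE1 libraries labelled WT and 37.3 and 94.5 in those labelled Lmo2-/-, against 22.5 to 45.3 in Flk-1+ cells (log2 fold change 4.42, SE 0.48, limma adjusted p = 0.00075). Of the 5 markers of mural cells and fibroblasts, 3 were called higher in Lmo2-/- HE1. They were Col1a1, at 6.64 and 5.23 against 29.6 and 259 FPKM, Col3a1, at 0 and 4.14 against 23.2 and 27.9, and Postn, at 20.0 and 12.4 against 99.7 and 372. The other two were not called: Acta2 was at 165 and 114 against 263 and 816 FPKM, and Tagln at 50.5 and 53.7 against 59.0 and 24.1. The other Flk-1+ markers did not follow Pdgfra, with Kdr at 236 and 275 against 175 and 143 FPKM, Etv2 at 2.32 and 1.36 against 0 and 0, and Mesp1 at 0 in all 4. Without Lmo2-/- HE1 replicate 1, Pdgfra was still called (3.76), whereas Col1a1 (2.15), Col3a1 (3.42) and Postn (2.59) were not. All 4 HE1 libraries held Cdh5, an endothelial cadherin, at 281 FPKM or more, and Cdh5 was at 452 and 423 in WT and 281 and 365 in Lmo2-/-. The part of these mesenchymal genes in the Wnt5a, Axin2 and Ror results was not tested.

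**Figure D4:**
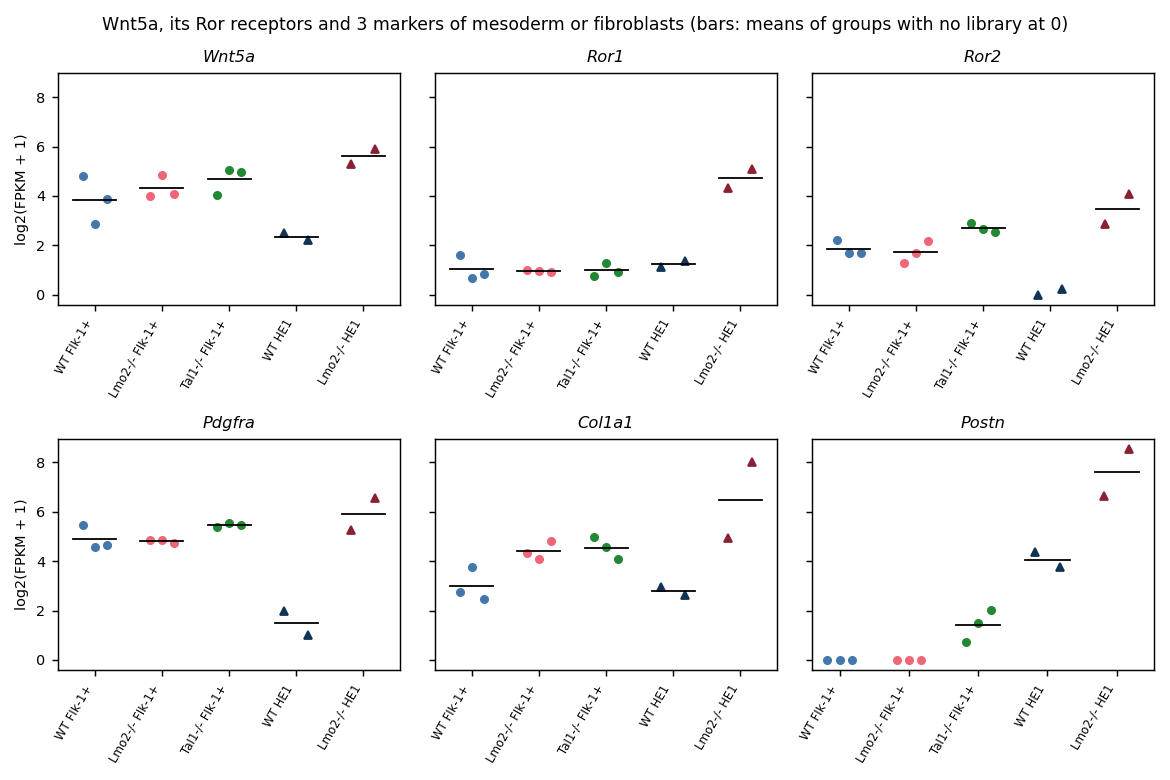
Levels as log2(FPKM + 1) (vertical axis, shared scale) of Wnt5a, Ror1, Ror2, Pdgfra, Col1a1 and Postn in the 5 groups, with 1 point per library (circles, Flk-1+; triangles, HE1) and a bar at the mean of groups with no library at 0. In all 6 panels both HE1 libraries labelled Lmo2-/- lie above both labelled WT, and Ror1 is near its Flk-1+ level in the HE1 libraries labelled WT.

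Across the stage step in WT cells, 4 of the 58 pathway genes were called lower and 3 higher, against 0.942% and 6.04% of all tested genes. They were T (brachyury), the mesodermal T-box factor, at 43.3 to 122 FPKM in Flk-1+ cells and listed at 0 in HE1, Lgr5, a receptor of R-spondins, at 15.0 to 28.9 FPKM and then 0, the feedback inhibitor Nkd1, which fell by 3.30 (SE 0.57), and Tcf7, which fell by 1.83 (SE 0.43). Those called higher were the endothelial receptor Fzd4 (3.36, SE 0.43), Apc (1.38, SE 0.35) and Ctnnb1, which encodes beta-catenin (1.104, SE 0.30). Ctnnb1 was at 67.3 to 97.3 FPKM in WT Flk-1+ cells and at 168 and 162 in WT HE1. The 7 calls became 4 without WT Flk-1+ replicate 1 or without either WT HE1 library.

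In Lmo2-/- cells 2 of the 58 were called lower and 13 higher, against 2.38% and 17.2% of all tested genes. T was at 19.2 to 64.6 FPKM in Flk-1+ cells and listed at 0 in HE1, and Nkd1 fell by 3.24 (SE 0.57). Among the 6 receptors called higher were Ror1 (3.74, SE 0.46), Fzd4 (3.31, SE 0.43), Fzd10 (2.13, SE 0.49) and Ror2 (1.75, SE 0.49). Of the 10 tested transducers 4 were called higher, against 17.2% of all tested genes, and the others were not called. These 4 were Apc (2.08, SE 0.35), Ctnnb1 (1.54, SE 0.30), Gsk3b (1.26, SE 0.36) and Csnk1a1 (1.20, SE 0.36). Lgr4 (1.85, SE 0.41), Apcdd1 (1.65, SE 0.34) and Cdx2 (2.79, SE 0.53) were called higher as well. Leaving out an Lmo2-/- HE1 library leaves 1 sample in that group, and the number of calls then moved in both directions. The number over all tested genes also did so when single libraries were left out. Without Lmo2-/- HE1 replicate 1 Ror2 (1.13), Cdx2 (1.80), Gsk3b (1.37) and Csnk1a1 (1.07) were among those not called.

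These stage counts depended on scaling. The median log2 fold change over all tested genes was 0.11 in WT and 0.30 in Lmo2-/- cells, and with libraries scaled to a common median these medians were -0.24 and -0.34. The calls over all tested genes then turned from 834 higher and 130 lower to 419 and 316 in WT, and from 2379 and 328 to 609 and 764 in Lmo2-/- cells. Between the HE1 groups they turned from 297 higher and 118 lower to 115 and 115, with the median moving from 0.15 to -0.05. The members that were called kept their direction under this scaling, in which Wnt5a was 2.70 higher in Lmo2-/- HE1.

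The kit was stranded, but the deposited FPKM are summed over each gene without a stated use of strand. GENCODE M21 annotates antisense transcripts within Wnt5a (Gm2670, chr14:28504750-28527448 for Wnt5a), Axin2 (Gm11670, chr11:108920349-108950783 for Axin2), Lef1 and Rspo3, and the protein-coding gene Fbxl14 on the opposite strand within Wnt5b. Without strand, reads of these genes and of their partners cannot be told apart. Gm42449 overlaps Lef1 and Gm20276 overlaps Rspo3 on the same strand, where use of strand would not separate them. Wnt3 (chr11:103774150-103817957), Wnt3a, Wnt2, Dkk1 (chr19:30545863-30549665) and Sp5 (chr2:70474923-70477729) have no overlapping gene in that annotation of GRCm38.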

How the data were processed

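RNAseq libraries were made by the authors with a stranded mRNA kit, and reads were aligned with TopHat to GRCm38, assembled with Cufflinks (quartile normalisation, effective length correction) and merged. FPKM were deposited by the authors in separate tables, with 1 column for each library, scaled by Cuffnorm, and 1 for each condition. The condition values and the deposited table of comparisons (fold changes, p-values and q-values of the authors) were not used. All columns of single libraries entered (0 omitted).

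The 10 members and the pathway and marker lists were chosen with earlier results of these data known. Genes that reached 1 FPKM in 2 or more of the 13 libraries and had a locus longer than 200 bp were tested by limma 3.58.1 in R 4.3.3 on log2(FPKM + 1), with group means and a mean-variance trend. A fold change on this scale understates the change of low genes. The 6 pairwise comparisons and the interaction used two-sided p-values with Benjamini-Hochberg adjustment. The study tested with Cuffdiff, which needs reads. Its rule of 10 FPKM in any sample was narrowed here to the mean of either group compared. Members also had exact permutation tests in scipy 1.17.1. Python 3.11.15, numpy 2.4.6, pandas 2.3.3 and matplotlib 3.10.9 were used for the rest. The fit was tested on simulated data for the WT to Lmo2-/- Flk-1+ comparison only. The comparisons with HE1 were not tested in this way. Named genes were the members, called genes of each list (up to 4 per comparison by size), the targeted genes and markers, and the 5 genes most correlated with Axin2. Alternatives were a pseudocount of 0.1, 2 other filters (no filter on low values, and at least 10 FPKM in 1 library), no FPKM criterion, quantile normalization, scaling to a common median, fitting only the groups compared, no trend, array weights, a block on replicate number, and omission of each library. Replicate numbers are those of the column names and are not stated to pair libraries. Gene positions are from GENCODE M21 and promoter windows from RefSeq. ChIP and DNase data were not analysed here.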

Additional observations from a re-analysis of the deposited data

Results flagged for a closer look

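Wnt5a moved in opposite directions between stages in the 2 genotypes, and every library took part. Both HE1 libraries labelled WT lay below all WT Flk-1+ libraries (log2 fold change -1.50), as for 17.2% of all tested genes. Both HE1 libraries labelled Lmo2-/- lay above all Lmo2-/- Flk-1+ libraries (1.30), as for 31.9% of all tested genes. Neither change was called alone. The second was 0.26 under quantile normalization and 0.31 at a common median. The difference was tested as the interaction of genotype and stage and did not pass (2.79, SE 0.75, limma adjusted p = 0.14). Its adjusted p ran from 0.14 to 0.36 over the 10 alternatives.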

How the results depend on the processing

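No member was called in any of the 3 Flk-1+ comparisons under any alternative or without any single library. From WT to Lmo2-/- HE1 the count of members called (2) was 1 at a common median and 0 with the groups fitted alone or with array weights, and 0 to 2 without single libraries. From WT Flk-1+ to WT HE1 (2) it was 1 with no filter and with the groups alone, 3 with no FPKM criterion, quantile normalization, a common median or array weights, and 1 to 2 without single libraries. From Lmo2-/- Flk-1+ to Lmo2-/- HE1 (1) it was 2 with no FPKM criterion, quantile normalization or a common median, 0 with the smaller pseudocount, no filter, the groups alone, no trend, array weights or the replicate block, and 0 to 2 without single libraries. The interaction called 0 to 2 members without single libraries. Wnt3 was the member added by dropping the FPKM criterion, at -2.96 in WT, whose HE1 libraries are at 0, and -2.54 in Lmo2-/-.

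Of the other pathway genes, the 5 called between the HE1 groups were 3 under quantile normalization, 1 at a common median, 0 with the groups alone and 1 with array weights (1 to 16 without single libraries). The 7 of the WT stage step were 15 with no FPKM criterion and 11 with array weights (4 to 9), and the 15 of the Lmo2-/- step were 8 under quantile normalization, a common median or the groups alone and 7 with array weights (9 to 23). The 2 of the interaction were 1 with the smaller pseudocount or no filter and 0 with the 10 FPKM filter, quantile normalization, a common median, the groups alone, array weights or the block (0 to 11).

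Calls over all tested genes moved as follows. From WT to Lmo2-/- Flk-1+ (0) there was 1 with the 10 FPKM filter, quantile normalization, no trend or array weights (0 to 2 without single libraries). From WT to Tal1-/- Flk-1+ (0) there were 2 with the smaller pseudocount or a common median, 1 with no filter or the 10 FPKM filter, 5 under quantile normalization and 15 with array weights (0 to 2). From Lmo2-/- to Tal1-/- Flk-1+ (2) there were 5 under quantile normalization, 8 with array weights and 0 with the smaller pseudocount, no filter, the groups alone or the block (0 to 2). Between the HE1 groups (415) there were 626 with no FPKM criterion, 212 under quantile normalization, 230 at a common median, 0 with the groups alone and 51 with array weights (86 to 2177). The WT step (964) gave 629 with the groups alone and 1682 with array weights (323 to 1245), and the Lmo2-/- step (2707) gave 1248 under quantile normalization, 1373 at a common median, 1109 with the groups alone and 976 with array weights (1645 to 3836). The interaction (48) gave 26 with the 10 FPKM filter, 11 under quantile normalization, 18 at a common median, 12 with the groups alone, 5 with array weights and 14 with the block (0 to 1150). The causes were not tested.

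Reversed directions concerned uncalled values only. They were Wnt3 from Lmo2-/- to Tal1-/- Flk-1+ with array weights (-0.041), Wnt2 in the Lmo2-/- step with the block (0.18), Rspo3 in the Lmo2-/- step under quantile normalization (-0.13) and at a common median (-0.21), Dkk1 from WT to Lmo2-/- Flk-1+ with the smaller pseudocount (0.005) and array weights (0.16), and Axin2 from WT to Lmo2-/- Flk-1+ with array weights (0.019). Without single libraries, ranges spanned 0 from WT to Lmo2-/- Flk-1+ for Wnt3 (-0.22 to 0.18), Wnt5a (-0.040 to 0.92), Dkk1 (-0.21 to 0.23), Axin2 (-0.39 to 0.22) and Lef1 (-0.31 to 0.95). From WT to Tal1-/- they did so for Wnt3 (-0.28 to 0.42), Axin2 (-0.044 to 0.39), Lef1 (-0.20 to 1.06) and Sp5 (-0.25 to 0.73), and from Lmo2-/- to Tal1-/- for Wnt3 (-0.31 to 0.39), Axin2 (-0.016 to 0.59) and Lef1 (-0.38 to 0.60). Between the HE1 groups they were -0.48 to 1.92 for Dkk1 and -0.13 to 2.14 for Lef1, in the WT step -0.85 to 0.32 for Rspo3, in the Lmo2-/- step -1.30 to 0.83 for Wnt2 and -1.72 to 0.67 for Dkk1, and in the interaction -0.47 to 1.93 for Dkk1 and -0.50 to 1.77 for Lef1.

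Replicate numbers were not treated as pairing the libraries in the main fit, since no label states a pairing. Between libraries of equal number, residuals from the group means correlated at -0.125 to 0.117 on average in the 6 comparisons, and not every pair exceeded 0.1 in any comparison. With so few libraries per group these values do not settle whether libraries were paired. With the replicate block Lef1 in the Lmo2-/- step was -2.75 (adjusted p = 0.050) and lost its call, and no other member did. With 2 HE1 libraries per group, leaving out a library left 1 sample, assumed to vary like the other groups. Fragments per gene are not in the files, so what the depth allowed to be detected cannot be given.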

Other observations

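A further set of pathway genes, chosen after their values were seen, differed between the Flk-1+ genotypes without passing the correction over all genes. Wnt2b, a canonical ligand, was at 9.47, 5.95 and 4.49 FPKM in WT, 1.36, 2.87 and 2.98 in Lmo2-/- and 1.08, 0.449 and 2.85 in Tal1-/- Flk-1+ cells. Every mutant library was below every WT library (8.21% of all tested genes did not overlap between WT and Lmo2-/-, and 12.6% between WT and Tal1-/-), with log2 fold changes of -1.15 (SE 0.51, limma adjusted p = 1.00) in Lmo2-/- and -1.70 (SE 0.51, limma adjusted p = 0.54) in Tal1-/-. In HE1 Wnt2b was at 0.225 and 0.291 FPKM in the libraries labelled WT and 4.01 and 11.3 in those labelled Lmo2-/-. Cdx2 was at 0.107, 0 and 0.369 FPKM in WT, 0.814, 0.505 and 0.749 in Lmo2-/- and 4.64, 4.03 and 5.53 in Tal1-/- Flk-1+ cells (log2 fold change from WT to Tal1-/- 2.31, SE 0.48, limma adjusted p = 0.16).

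T, the mesodermal factor that canonical Wnt signals induce in the primitive streak, was at 122, 78.8 and 43.3 FPKM in WT, 19.2, 64.6 and 26.2 in Lmo2-/- and 16.4, 29.1 and 35.2 in Tal1-/- Flk-1+ cells. The paper, with Cuffdiff, lists T among the regulators lower in Lmo2-/- Flk-1+ cells. Here the Lmo2-/- libraries overlapped those of WT. Those of Tal1-/- did not, where 12.6% of all tested genes did not overlap (log2 fold change -1.50, SE 0.49, limma adjusted p = 0.62). Axin2 overlapped between the same libraries.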
